A study of Homo sapiens with 12 samples.

Results

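The miR-106b-25 cluster is a group of 3 microRNA hairpins, miR-106b, miR-93 and miR-25, that lie inside an intron of MCM7. It was followed through its 6 mature arms, hsa-miR-106b-5p, hsa-miR-106b-3p, hsa-miR-93-5p, hsa-miR-93-3p, hsa-miR-25-3p and hsa-miR-25-5p, which were taken by name from the 2588 mature miRNAs of the count table. The libraries were small RNA libraries of MDA-MB-231, an established human triple-negative breast cancer line, and of the extracellular vesicles (EVs) these cells released. Each of 3 lines gave 2 libraries of cells and 2 of EVs, 12 in all. The control line carried an empty lentiviral vector, the RAB27A knockdown line a lentiviral short hairpin RNA against RAB27A, and the miR-122 knockout line a CRISPR-Cas9 edit of the hsa-miR-122 gene made with 2 guide RNAs. RAB27A is a small GTPase with a role in docking vesicles for secretion. hsa-miR-122 is best known as the dominant microRNA of hepatocytes. All lines were kept in medium with 10% fetal bovine serum and were switched to serum-free medium with 1% bovine serum albumin for 24 h before EVs were pelleted by ultracentrifugation and the producing cells were harvested. Each perturbation was 1 line (1 hairpin construct, 1 knockout), so every difference below is one between these lines. Whether the numbered replicates came from separate cultures is not stated. The p-values therefore reflect the spread of these libraries alone, which may be technical.

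A microRNA hairpin is cut by Drosha and Dicer into a duplex, of which 1 arm is usually loaded into Argonaute and kept while the other is mostly degraded. The loaded arm finds messenger RNAs mainly through its seed, the bases near its 5′ end. The cluster is a paralog of miR-17-92, the oncogenic polycistron also called oncomiR-1, and of miR-106a-363 on the X chromosome. It is transcribed with its host gene MCM7, a subunit of the helicase that licenses DNA replication, under the control of E2F factors. Its arms are known to repress CDKN1A, the cell cycle inhibitor, BCL2L11, the proapoptotic protein BIM, and E2F1 itself, and they are raised in many epithelial tumours, breast tumours among them.

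The mature sequences are shown because 3 of the arms fall into 2 seed families, and the comparisons with the paralogs below rest on these families. The other 3 arms carry different seeds, and whether other miRNAs share those was not examined. They are RefSeq sequences on GRCh38.p14, written 5′ to 3′, with the seed, bases 2 to 8, in capitals. All 6 arms were matched by name, as were 2281 of the 2588 miRNAs of the table.
hsa-miR-106b-5p: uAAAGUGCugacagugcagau
hsa-miR-93-5p: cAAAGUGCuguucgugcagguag
hsa-miR-25-3p: cAUUGCACuugucucggucuga
hsa-miR-106b-3p: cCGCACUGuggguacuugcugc
hsa-miR-93-3p: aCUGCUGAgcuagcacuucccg
hsa-miR-25-5p: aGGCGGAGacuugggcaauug
The arms miR-106b-5p and miR-93-5p carry the same seed. The paralogs in the other clusters that share it are hsa-miR-17-5p and hsa-miR-20a-5p of miR-17-92 and hsa-miR-106a-5p and hsa-miR-20b-5p of miR-106a-363.
hsa-miR-17-5p: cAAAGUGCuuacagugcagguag
hsa-miR-20a-5p: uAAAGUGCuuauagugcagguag
hsa-miR-106a-5p: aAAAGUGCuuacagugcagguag
hsa-miR-20b-5p: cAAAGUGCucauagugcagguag
The seed of miR-25-3p is shared by hsa-miR-92a-3p, listed here under miR-17-92, hsa-miR-363-3p of miR-106a-363, and hsa-miR-92b-3p and hsa-miR-32-5p, which lie in neither cluster. A second hairpin for miR-92a-3p lies in miR-106a-363, where its other arm is hsa-miR-92a-2-5p. Counts of miR-92a-3p do not tell these hairpins apart.
hsa-miR-92a-3p: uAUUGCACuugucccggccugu
hsa-miR-92b-3p: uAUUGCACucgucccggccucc
hsa-miR-363-3p: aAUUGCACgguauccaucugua
hsa-miR-32-5p: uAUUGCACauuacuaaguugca
The closest other mature sequences were 3 edits away from miR-93-5p (miR-17-5p and miR-20b-5p), 5 from miR-106b-5p (miR-106a-5p and miR-17-5p) and 4 from miR-25-3p (miR-92a-3p), and 7 or 8 edits away from the other 3 arms. How reads that match several miRNAs were assigned is not given in the sources used here. GC content was 42.9% for miR-106b-5p, 63.6% for miR-106b-3p, 52.2% for miR-93-5p, 59.1% for miR-93-3p, 50% for miR-25-3p and 57.1% for miR-25-5p.

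The 3 hairpins lie on the minus strand of chromosome 7 within 515 bases. In GENCODE v29 on GRCh38, MIR106B is at chr7:100093993-100094074, MIR93 at chr7:100093768-100093847 and MIR25 at chr7:100093560-100093643, and MCM7 spans chr7:100092728-100101940 on the same strand. In the transcript MCM7-201, which has 15 exons, all 3 hairpins sit in the 771-base intron between exons 13 and 14. Of 13 annotated MCM7 transcripts, 8 hold the cluster in an intron and 0 have an exon over it. The submitters' processing notes name hg19, so these positions come from the annotation and not from the count table. The hairpins below show from which side each arm comes, with both arms in capitals.
MIR106B: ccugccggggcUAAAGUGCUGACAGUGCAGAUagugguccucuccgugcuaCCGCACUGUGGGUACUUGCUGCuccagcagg
MIR25: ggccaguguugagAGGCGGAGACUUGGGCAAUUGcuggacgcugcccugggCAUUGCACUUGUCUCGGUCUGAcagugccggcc
In the miR-106b hairpin the arm with the shared seed is on the 5′ side, and in the miR-25 hairpin it is on the 3′ side.

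Library totals ran from 3140610 to 11840597 counts in cells and from 2387336 to 3754673 in control and knockout EVs, but were 164656 and 170366 in knockdown EVs, where 1 count is worth 6.07 and 5.87 CPM (counts per 1e6 counts of the library). The target of the knockout, miR-122-5p, had 5 and 4 counts in control cells, 39 and 40 in knockdown cells, and none in either knockout cell library. It had 790 and 651 counts in control EVs, 7 and 5 in knockdown EVs, and 4 and 3 in knockout EVs, where the origin of the remaining counts was not tested. These counts come from libraries of unlike depth. As a mean of 2 libraries, miR-122-5p stood at 0.392 CPM in control cells and 12.5 in knockdown cells. In EVs its mean was 291 CPM for control, 35.9 for knockdown and 1.01 for knockout. Of the miRNAs that mark MDA-MB-231, miR-100-5p, miR-21-5p and miR-221-3p were among the 4 most abundant in every library, and miR-222-3p ranked 10th to 20th. The epithelial miR-200 family ranked 108th or lower. Control EVs stood apart by a list of 8 blood cell miRNAs, which summed to 10685 ± 1157 CPM there (SD, n = 2) against 211 ± 58.2 in knockdown EVs, 182 ± 49.1 in knockout EVs and 111 to 277 CPM as group means in cells. A list of 4 stromal miRNAs gave 3121 ± 81.9 CPM in control EVs, 110 ± 1.56 in knockdown EVs and 30.7 ± 7.75 in knockout EVs.

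Levels are given first as CPM, in the order of replicates 1 and 2. The most abundant member was miR-93-5p, a repressor of CDKN1A and the main product of the middle hairpin. It stood at 5467 and 5698 CPM in control cells, 3378 and 3602 in knockdown cells, and 3949.9 and 4313 in knockout cells. In EVs it stood at 5839 and 5840.4 CPM for control, 4822 and 5142 for knockdown, and 4589 and 4752 for knockout. Knockdown cells were lowest and control EVs highest, and no neighbouring groups in the order of means overlapped. The other arm of that hairpin, miR-93-3p, was the scarcest member. It stood at 70.1 and 71.7 CPM in control cells, 31.3 and 32.5 in knockdown cells, and 77.9 and 97.6 in knockout cells. In EVs it stood at 36.9 and 35.4 CPM for control, 54.1 and 52.4 for knockout, and 12.1 and 5.87 for knockdown, the last from only 2 counts and 1 count. Its order of groups differed from that of miR-93-5p: knockout cells were highest, and all 3 EV groups were below the cells of their own line.

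The 2 arms of miR-106b were closer in level than those of the other hairpins, and miR-106b-3p exceeded miR-106b-5p in all 12 libraries. Counts of miR-106b-5p were 0.487 times those of miR-106b-3p in knockout EV replicate 1, the lowest ratio, and 0.944 times in control cell replicate 2, the highest. The seed-sharing arm miR-106b-5p, a repressor of CDKN1A like miR-93-5p, stood at 473 and 526 CPM in control cells, 271 and 298 in knockdown cells, and 382 and 459.9 in knockout cells. In EVs it stood at 552 and 512 CPM for control, 419 and 469.6 for knockdown, and 291 and 365 for knockout. Control EVs overlapped control cells, knockdown EVs overlapped knockout cells, and knockout EVs overlapped knockdown cells, the lowest group. For miR-106b-3p the levels were 521 and 556 CPM in control cells, 371 and 436 in knockdown cells, and 559.7 and 519 in knockout cells. In EVs they were 766 and 847 CPM for control, 601 and 569 for knockdown, and 596 and 600.0 for knockout. Control EVs lay above all other groups and knockdown cells below them, and control and knockout cells overlapped.

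The arm miR-25-3p, a repressor of BCL2L11 with the seed of miR-92a-3p, was the next most abundant member. It stood at 1159 and 1288 CPM in control cells, 768 and 922 in knockdown cells, and 732 and 970.0 in knockout cells. In EVs it stood at 1604 and 1766 CPM for control, 1178 and 1186 for knockdown, and 904 and 1039 for knockout. Control EVs were highest, and knockdown cells, knockout cells and knockout EVs overlapped at the low end. Its partner miR-25-5p stood at 209 and 200.1 CPM in control cells, 69.9 and 65.9 in knockdown cells, and 235 and 192 in knockout cells. In EVs it stood at 168 and 171 CPM for control, 54.7 and 82.2 for knockdown (9 and 14 counts), and 180.3 and 143 for knockout. Both knockdown groups were low and overlapped each other, and every other library lay at or above 143 CPM.

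**Figure D1:**
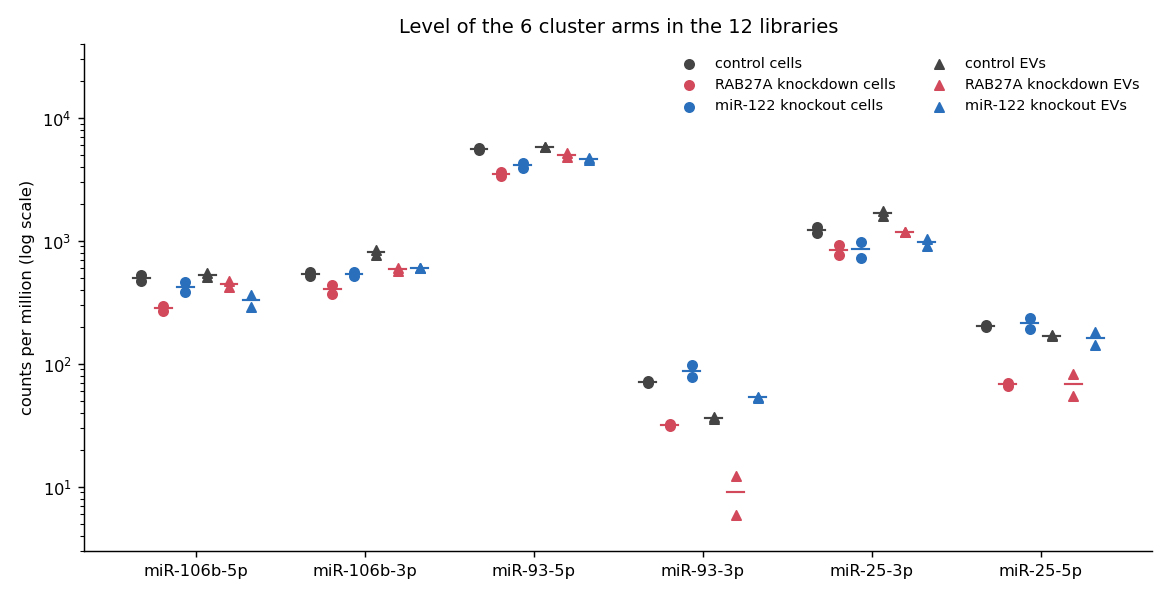
Level of the 6 arms in CPM on a log axis, with cells as circles, EVs as triangles, control in grey, RAB27A knockdown in red, miR-122 knockout in blue, 1 symbol per library and a bar at the mean of 2. The plot spans from 5.87 CPM for miR-93-3p in a knockdown EV library to 5840.4 CPM for miR-93-5p in a control EV library, and the red circles are the lowest cell values for every arm but miR-25-3p, where a knockout library stood at 732 CPM.

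Together the 6 arms made up 0.812% ± 0.031 of the counts in control cells (SD, n = 2), 0.512% ± 0.033 in knockdown cells and 0.624% ± 0.044 in knockout cells. In EVs they made up 0.907% ± 0.015 for control, 0.727% ± 0.026 for knockdown and 0.678% ± 0.024 for knockout. The makeup of the cluster varied little for its main arm: miR-93-5p gave 63.7% to 69.4% of cluster counts over the 12 libraries. The minor arms varied more. The share of miR-93-3p was lowest in knockdown EVs, at 0.13% ± 0.066, and highest in knockout cells, at 1.40% ± 0.13, and that of miR-25-5p was 0.937% ± 0.23 and 3.44% ± 0.72 in the same groups. In such bulk libraries fewer cells that carry an arm and less of it per cell cannot be told apart.

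In RAB27A knockdown cells all 6 arms fell against control cells, with 53.8% of the 613 miRNAs tested called in this comparison and 29.5% called lower (edgeR's quasi-likelihood test, adjusted p below 0.05 over all miRNAs). The 2 knockdown libraries lay below both control libraries for each arm. The median log2 fold change of the arms was -0.73, against -0.11 for all tested miRNAs. The largest falls were in the minor arms. miR-25-5p fell 2.98-fold (log2 fold change -1.57, SE 0.17, edgeR adjusted p = 1.07e-07) and miR-93-3p fell 2.20-fold (-1.14, SE 0.16, edgeR adjusted p = 4.52e-06). Among the seed-sharing arms, miR-106b-5p fell 1.74-fold (-0.80, SE 0.12, edgeR adjusted p = 1.54e-05), miR-93-5p 1.58-fold (-0.66, SE 0.11, edgeR adjusted p = 2.72e-05) and miR-25-3p 1.44-fold (-0.52, SE 0.12, edgeR adjusted p = 0.00132). The 5 epithelial miRNAs of the miR-200 family summed to 326 ± 5.9 CPM in these cells against 159.7 ± 4.0 in control cells (SD, n = 2), with miR-200a-3p, miR-200b-3p and miR-429 called higher and miR-200c-3p called lower, and their part in the falls was not tested. The smallest fall was that of miR-106b-3p, 1.32-fold (-0.41, SE 0.14, edgeR adjusted p = 0.0169), and it did not pass with DESeq2 (adjusted p = 0.116) or with DESeq2's size factors in edgeR (adjusted p = 0.0757). Without knockdown cell replicate 1, 3 of the 6 arms passed, miR-106b-5p, miR-93-3p and miR-25-5p. Without control cell replicate 2 it was 4, with miR-106b-3p and miR-25-3p lost, and without knockdown cell replicate 2 it was 5, with miR-106b-3p lost.

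In knockdown EVs 5 of the 6 arms fell against control EVs, with 46.3% of 488 miRNAs called and 27.5% called lower. The knockdown libraries lay below both control libraries in CPM for each arm. miR-25-5p fell 2.68-fold (log2 fold change -1.42, SE 0.30, edgeR adjusted p = 0.00178). miR-25-3p fell 1.54-fold (-0.63, SE 0.13, edgeR adjusted p = 0.00143), miR-106b-3p 1.49-fold (-0.58, SE 0.14, edgeR adjusted p = 0.00468) and miR-93-5p 1.27-fold (-0.35, SE 0.10, edgeR adjusted p = 0.0143). The fall of miR-93-3p passed as well (edgeR adjusted p = 0.00865), but rests on 3 counts over both knockdown libraries against 180 in control EVs, a pooled CPM 4.03-fold lower with a 95% exact counting interval of 1.36 to 19.7-fold. miR-106b-5p, at -0.38 (SE 0.17, edgeR adjusted p = 0.0937), did not pass. With all EV libraries thinned to the depth of the shallowest, 2 arms passed, miR-106b-3p and miR-25-5p, while miR-93-5p (-0.16) and miR-25-3p (-0.37, adjusted p = 0.0555) did not and miR-93-3p had too few counts to be tested. The blood list was higher in control EVs than in knockdown EVs, as given above, and the epithelial list stood at 421 ± 5.9 CPM in knockdown EVs against 190.3 ± 15.3 in control EVs (SD, n = 2); the part of either in these differences was not tested. Without knockdown EV replicate 2 the call of miR-93-3p was lost (adjusted p = 0.066) and miR-106b-5p passed as lower (adjusted p = 0.0252), as it did without knockout EV replicate 2 (adjusted p = 0.0467), with RLE factors (adjusted p = 0.0481) and without a filter (adjusted p = 0.00144). The call of miR-93-5p was also lost with library totals and on only the libraries compared (adjusted p = 0.0845 and 0.0794).

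In miR-122 knockout cells the picture depended on the scaling. On the CPM scale, knockout cells lay below control cells for miR-93-5p, miR-25-3p and miR-106b-5p and above them for miR-93-3p, and overlapped them for miR-106b-3p and miR-25-5p. The 4 MDA-MB-231 marker miRNAs took a larger part of these libraries, 677164 ± 11821 CPM (SD, n = 2) against 551936 ± 4777 in control cells, and the TMM factors of the test scaled the knockout libraries by 0.785 and 0.936 and the control libraries by 1.10 and 1.07. With these factors 3 arms rose and 0 fell, with 62.3% of 613 miRNAs called. miR-93-3p rose 1.56-fold (log2 fold change 0.64, SE 0.14, edgeR adjusted p = 0.000573), miR-25-5p 1.34-fold (0.42, SE 0.15, edgeR adjusted p = 0.0219) and miR-106b-3p 1.28-fold (0.35, SE 0.13, edgeR adjusted p = 0.0284). The other 3 had values of -0.09 for miR-93-5p, 0.09 for miR-106b-5p and -0.20 for miR-25-3p (edgeR adjusted p = 0.463, 0.552 and 0.172). None of these 3 had an unadjusted p under 0.05, and DESeq2 called 0 arms lower as well. With library totals as the only scaling, 2 arms passed as lower, miR-93-5p at -0.43 and miR-25-3p at -0.52, and no arm passed as higher. That scaling moved the median log2 fold change of all miRNAs from -0.08 to -0.42. With a correction for the GC content of the mature sequence, miR-106b-5p passed as higher (0.32), miR-93-5p (-0.37) and miR-25-3p (-0.39) passed as lower, and miR-93-3p (0.17), miR-25-5p (-0.003) and miR-106b-3p (-0.26) did not pass. The calls of miR-25-5p and miR-106b-3p were also lost when any 1 of the control or knockdown libraries or knockout replicate 1 was left out, with log2 fold changes down to 0.04 and 0.08 without knockout replicate 1, and when the filter on low counts was dropped or only the compared libraries were fitted. That of miR-93-3p passed each time. miR-93-5p passed as lower without knockout replicate 1 (-0.24, adjusted p = 0.017) and miR-25-3p without knockout replicate 2 (-0.28, adjusted p = 0.00141).

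In knockout EVs 2 arms passed against control EVs, 1 in each direction, with 41.2% of 488 miRNAs called. miR-93-3p rose 1.91-fold (log2 fold change 0.94, SE 0.16, edgeR adjusted p = 0.000361), and miR-25-3p fell 1.34-fold (-0.42, SE 0.11, edgeR adjusted p = 0.0101). The values of the arms that did not pass were -0.33 for miR-106b-5p (edgeR adjusted p = 0.0728), 0.31 for miR-25-5p (adjusted p = 0.117), 0.05 for miR-93-5p (adjusted p = 0.713) and -0.05 for miR-106b-3p (adjusted p = 0.757). As in cells, library totals gave lower values: 5 arms passed, with miR-93-3p still higher at 0.56 and miR-93-5p, miR-106b-5p, miR-106b-3p and miR-25-3p lower. The call of miR-25-3p was lost without control EV replicate 2 (adjusted p = 0.0599) or knockout EV replicate 1 (adjusted p = 0.0883). miR-106b-5p passed as lower without either knockdown EV replicate (adjusted p = 0.0494 and 0.00753) or without knockout EV replicate 2 (adjusted p = 0.0147), the last of which also brought miR-25-5p past the threshold as higher. It also passed with RLE factors, with DESeq2 and on only the libraries compared (adjusted p = 0.0192, 0.0205 and 0.0197). After thinning to the shallowest depth 0 of 5 arms passed, and miR-93-3p had too few counts to be tested. The same blood list stood at 182 CPM in knockout and 10685 CPM in control EVs, and the epithelial list at 323 and 190.3 CPM. Their part was not tested.

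**Figure D2:**
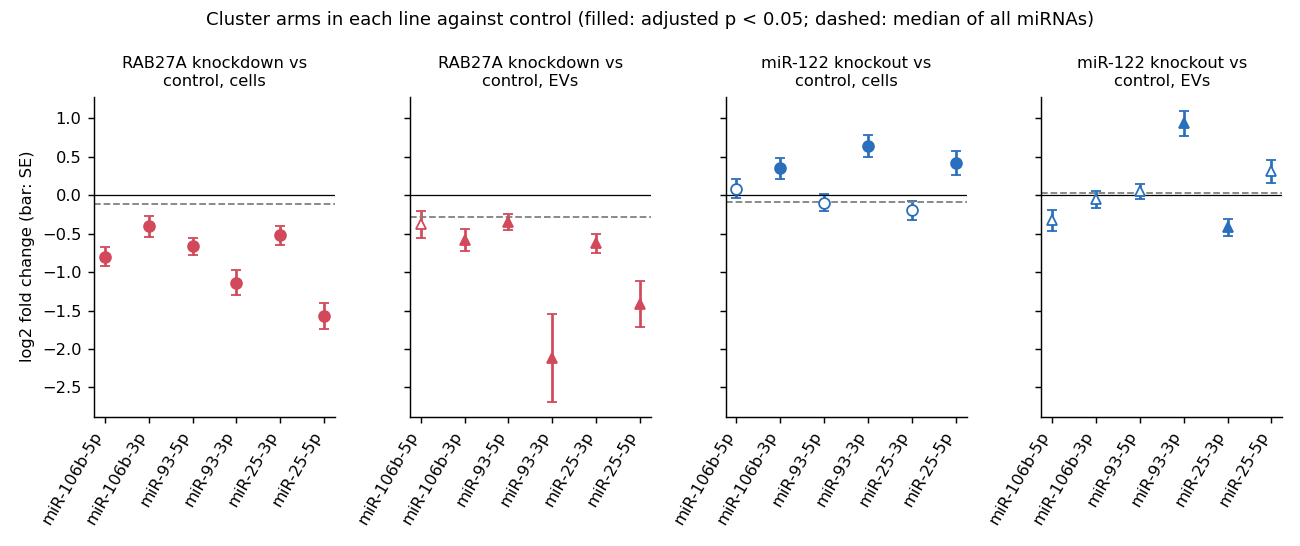
Log2 fold change of each arm against control (vertical axis, bars ± SE) in knockdown cells, knockdown EVs, knockout cells and knockout EVs, filled where the adjusted p was below 0.05, with the median of all tested miRNAs dashed. All 6 arms are filled and below 0 in knockdown cells, from -0.41 to -1.57, while in knockout libraries miR-93-3p stands at 0.64 in cells and 0.94 in EVs. The knockout panels depend on the scaling.

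Set directly against each other, knockout cells had all 6 arms higher than knockdown cells, with 64.4% of 613 miRNAs called and 30.7% called higher. The differences ran from 0.33 for miR-25-3p (SE 0.12, edgeR adjusted p = 0.0269) to 1.99 for miR-25-5p (SE 0.17, edgeR adjusted p = 2.29e-09), on the log2 scale. miR-93-3p was 3.43-fold higher, miR-106b-5p 1.85-fold, miR-106b-3p 1.69-fold and miR-93-5p 1.49-fold. Without knockdown cell replicate 1, the calls of miR-106b-3p, miR-93-5p and miR-25-3p were lost, and 3 arms passed. That of miR-25-3p was also lost without knockdown cell replicate 2 or either control cell replicate, with library totals (0.0094), with DESeq2 and with GC correction, which lost that of miR-106b-3p too (0.10). In EVs 4 arms were higher in the knockout line, with 40.4% of 488 miRNAs called. These were miR-25-5p (1.73, SE 0.29, edgeR adjusted p = 0.000395), miR-106b-3p (0.52, SE 0.14, edgeR adjusted p = 0.00946), miR-93-5p (0.40, SE 0.10, edgeR adjusted p = 0.00682) and miR-93-3p, whose pooled CPM was 5.95-fold higher with a 95% exact counting interval of 2.02 to 29-fold. With library totals 2 arms passed, miR-25-5p and miR-93-3p, while miR-93-5p turned to -0.093 and miR-106b-3p stood at 0.032, and the share of all calls that were higher went from 56.3% to 35.3%. Without knockdown EV replicate 2 the call of miR-106b-3p was lost (adjusted p = 0.0583). After thinning, the call of miR-25-5p held, those of miR-106b-3p and miR-93-5p did not (adjusted p = 0.0517 and 0.0763), and miR-93-3p had too few counts to be tested.

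Within each line EVs were set against the cells that made them, in a fit over all 12 libraries with 574 miRNAs. miR-93-3p was lower in EVs than in cells in all 3 lines. It fell 2.16-fold in the control line (log2 fold change -1.11, SE 0.17, edgeR adjusted p = 2.27e-07) and 1.89-fold in the knockout line (-0.92, SE 0.16, edgeR adjusted p = 1.99e-06), and both calls held when any single library was left out. In the knockdown line the fall rests on the 3 counts noted above: pooled CPM was 3.56-fold lower in EVs (95% exact counting interval 1.2 to 17.4), and the call (edgeR adjusted p = 0.00304) was lost without knockdown EV replicate 2 (adjusted p = 0.0619). The most abundant member, miR-93-5p, did not pass in any line, with -0.07 in control, 0.04 in knockdown and -0.03 in knockout (edgeR adjusted p = 0.602, 0.909 and 0.894). In the control line it did pass as lower, at -0.29 to -0.24, when knockdown cell replicate 1, knockout cell replicate 2 or either knockdown EV replicate was left out, and without a filter on low counts it passed as lower in the control line (-0.45) and in the knockout line (-0.41).

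In the control line 4 of the 6 arms passed, with 53.7% of miRNAs called: miR-106b-3p (0.44, SE 0.12, edgeR adjusted p = 0.00238) and miR-25-3p (0.32, SE 0.12, edgeR adjusted p = 0.0237) were higher in EVs, and miR-25-5p (-0.41, SE 0.15, edgeR adjusted p = 0.0163) was lower together with miR-93-3p. Without a filter on low counts miR-25-3p turned to -0.050 and miR-106b-3p fell short of the threshold (0.069), and the call of miR-25-5p was lost with library totals, RLE factors, DESeq2 and GC correction. Without control cell replicate 1 or control EV replicate 2, miR-93-3p was the one arm that passed, and leaving out control cell replicate 2, control EV replicate 1, knockdown cell replicate 1, knockout cell replicate 2 or either knockdown EV replicate also lost 1 or more of the other calls. Control EVs are the group in which the blood list was high, and its part in the rise of miR-25-3p was not tested. In the knockdown line 1 arm passed, miR-93-3p, with 19.3% called. With library totals as the only scaling it was 5. In mean CPM, knockdown EVs exceeded knockdown cells for miR-93-5p (4982 against 3490), miR-25-3p (1182 against 845), miR-106b-5p (444 against 284) and miR-106b-3p (585 against 403). They were near equal for miR-25-5p (68.4 against 67.9) and lower for miR-93-3p (9.01 against 31.9). The TMM factors of this fit were 1.31 and 1.33 in knockdown EVs and 0.941 and 0.958 in knockdown cells. On simulated data with known changes, edgeR recovered 40.2% of 2-fold changes between EVs and cells in this line, 81.5% in the control line and 75% in the knockout line. The changed miRNAs were drawn at random from all that passed the filter, so these shares are not the recovery for the arms. The SE of the arms in the knockdown line ran from 0.11 for miR-93-5p to 0.60 for miR-93-3p. In the knockout line 3 arms fell in EVs, with 59.1% called: miR-93-3p, miR-25-5p (-0.62, SE 0.15, edgeR adjusted p = 0.000252) and miR-106b-5p (-0.56, SE 0.13, edgeR adjusted p = 0.000261). The call of miR-106b-5p was lost without knockout EV replicate 1 (adjusted p = 0.178) and that of miR-25-5p without knockout cell replicate 1 (adjusted p = 0.106) or with GC correction (adjusted p = 0.263). miR-106b-3p and miR-25-3p stood at -0.06 and -0.0017 (edgeR adjusted p = 0.718 and 1). With GC correction miR-106b-3p turned from -0.06 to 0.59 and passed as higher (adjusted p = 2.48e-05).

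The interaction asks whether the difference between EVs and cells was itself different from that of the control line. For the knockdown line 0 of the 6 arms passed in edgeR, with 18.6% of 574 miRNAs called. No arm had an unadjusted p under 0.05, and DESeq2 called 0 as well, but 1 arm passed with library totals, 1 with GC correction and 2 in a fit on only the libraries compared. On simulated data with known changes, edgeR recovered 41.8% of 2-fold changes for this interaction and 62.9% for that of the knockout line. These shares are over miRNAs drawn at random and are not the recovery for the arms. The SE of the arms in the knockdown interaction ran from 0.16 for miR-93-5p to 0.71 for miR-93-3p. For the knockout line 2 arms passed, both products of the miR-106b hairpin, with 48.3% called. miR-106b-5p had an interaction of -0.51 on the log2 scale (SE 0.18, edgeR adjusted p = 0.0191) and miR-106b-3p one of -0.50 (SE 0.18, edgeR adjusted p = 0.0159), so that both were lower in EVs relative to cells in the knockout line than in the control line. The fits without a filter on low counts and on only the compared libraries called 0 arms, library totals lost the call of miR-106b-5p (adjusted p = 0.0573), and GC correction left miR-106b-3p at 0.0145. Both calls were lost without either control cell replicate, knockdown cell replicate 1, control EV replicate 2, either knockdown EV replicate or knockout EV replicate 1. That of miR-106b-5p was also lost without knockdown cell replicate 2, knockout cell replicate 2 or control EV replicate 1, and that of miR-106b-3p without knockout cell replicate 1, which left values between -0.71 and -0.26 over both arms and all 12 libraries.

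The ratio of the arms of a hairpin within a library needs no scaling between libraries. The main arm of miR-93 exceeded its partner 78.0 and 79.4 times in control cells, 108 and 111 times in knockdown cells, and 50.7 and 44.2 times in knockout cells. In EVs it did so 158 and 165 times in the control line, 397 and 876 times in the knockdown line, and 84.9 and 90.7 times in the knockout line. EV libraries lay above the cell libraries of their line in all 3 lines. The log2 ratio was higher in EVs by 1.03 in control, 1.99 in knockdown and 0.89 in knockout, a mean of 1.3 (two-sided exact permutation test within lines, p = 0.00926, the smallest this design can give; Benjamini-Hochberg adjusted over 5 ratios, p = 0.0463). Without the knockdown line, whose EVs hold the 3 counts, the mean difference was 0.96, and the exact permutation test could then give no p below 0.0556.

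For miR-25 the main arm is on the 3′ side, and it exceeded miR-25-5p 5.56 and 6.44 times in control cells, 11 and 14.0 times in knockdown cells, and 3.12 and 5.06 times in knockout cells. In EVs it did so 9.52 and 10.3 times in control, 21.6 and 14.4 times in knockdown, and 5.01 and 7.28 times in knockout. EVs were above cells in mean in every line, but overlapped them in the knockout line, and the mean log2 difference of 0.60 (exact permutation p = 0.0278, adjusted p = 0.0694) did not pass after adjustment. For miR-106b the log2 ratio of miR-106b-5p to miR-106b-3p ran from -0.08 in a control cell library to -1.04 in a knockout EV library. Its mean difference between EVs and cells, -0.30, did not pass (exact permutation p = 0.0741, adjusted p = 0.116), with -0.49, 0.10 and -0.51 in control, knockdown and knockout. Between hairpins, the ratio of miR-93-5p to miR-106b-5p had a mean difference of 0.13 (exact permutation p = 0.333, adjusted p = 0.333), with -0.03, -0.14 and 0.54 in control, knockdown and knockout. That of miR-25-3p to miR-106b-5p had one of 0.26 (exact permutation p = 0.0926, adjusted p = 0.116), with 0.37, -0.16 and 0.57. Without knockdown EV replicate 2 the miR-25 ratio (0.69) and the miR-106b ratio (-0.34) passed in the exact permutation test (adjusted p = 0.0463 each), and the miR-25 ratio also did without knockout cell replicate 2 (0.71, adjusted p = 0.0231).

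Against control the arm ratios of miR-93 and miR-25 were both higher in the knockdown line and both lower in the knockout line. That of miR-106b was also lower in mean in the knockout line, but in the knockdown line it was lower in cells and higher in EVs. Against control, with cells and EVs as blocks, the log2 ratio of miR-93-5p to miR-93-3p was higher by 0.95 in the knockdown line, and the difference was -0.81 in the knockout line. That of miR-25-3p to miR-25-5p was higher by 0.91 in the knockdown line, and the difference was -0.65 in the knockout line. The log2 ratio of miR-106b-5p to miR-106b-3p differed by -0.09 in the knockdown line (exact permutation p = 0.556, adjusted p = 0.694) and by -0.27 in the knockout line (exact permutation p = 0.111, adjusted p = 0.139). The knockdown value is a mean of -0.39 in cells, where the groups did not overlap, and 0.20 in EVs, where they did. For each of the 4 values of miR-93 and miR-25 the groups did not overlap in cells or in EVs. Each had an exact permutation p of 0.0556, the smallest that 36 arrangements can give (adjusted p = 0.139), so the design cannot pass 0.05 here. The scarcer arms have the higher GC content in the miR-93 and miR-25 hairpins (59.1% against 52.2%, and 57.1% against 50%). The arms of miR-106b differ most, with 42.9% for miR-106b-5p and 63.6% for miR-106b-3p. After GC correction the log2 fold changes in knockout cells were 0.17 for miR-93-3p and -0.37 for miR-93-5p, against 0.64 and -0.09 without it, and -0.003 for miR-25-5p and -0.39 for miR-25-3p, against 0.42 and -0.20. Without the correction miR-106b-3p had a larger value than miR-106b-5p there, 0.35 against 0.09. With it that order turned, as miR-106b-5p passed as higher and miR-106b-3p had a negative value. The part of GC content in the differences of arm ratios was not tested. The 2 comparisons share the control libraries.

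**Figure D3:**
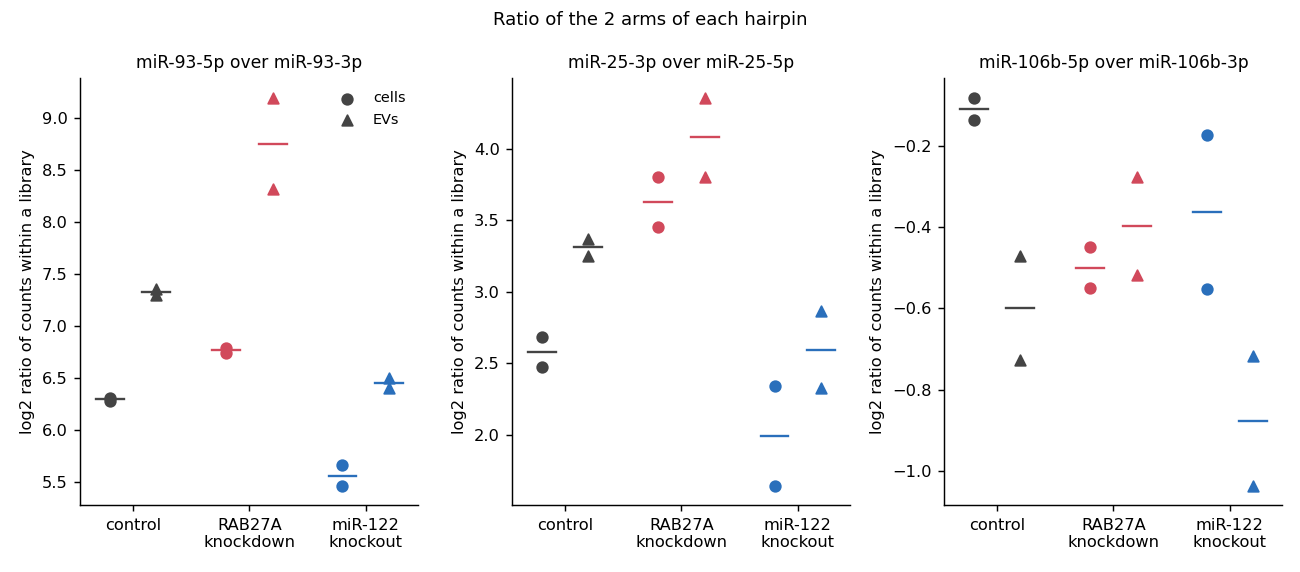
Log2 ratio of counts of the seed-sharing arm to the other arm within each library (vertical axis, a scale of its own in each panel) for the miR-93, miR-25 and miR-106b hairpins, by line, with cells as circles, EVs as triangles and bars at the mean of 2. In the miR-93 panel every EV symbol lies above the cell symbols of its line, and knockdown lies above and knockout below control in both fractions. In the miR-106b panel all values are below 0.

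The cluster's part in its seed families differed widely between lines. Of all counts with the seed of miR-106b-5p and miR-93-5p, these 2 arms gave 50.5% and 50.8% in control cells, 35.7% and 35.6% in knockdown cells, and 80.1% and 79.2% in knockout cells. In EVs they gave 57.3% and 59.6% in control, 37.1% and 40% in knockdown, and 61.0% and 61.2% in knockout. Knockdown libraries were lowest and knockout cells highest, with no overlap between lines within a fraction. Of counts with its own seed, miR-25-3p gave 19.2% ± 0.52 in control cells (SD, n = 2), 14.6% ± 0.72 in knockdown cells and 32.2% ± 0.62 in knockout cells. In EVs it gave 23.5% ± 1.1 in control, 19.6% ± 0.27 in knockdown and 16.1% ± 1.7 in knockout, so that the knockout line was highest in cells and lowest in EVs. These shares are descriptions and were not tested.

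In knockout cells the shift came with lower levels of the paralogs rather than higher levels of the arms. All 4 paralogs with the seed of miR-106b-5p and all 4 with the seed of miR-25-3p fell, with 34.6% of all miRNAs called lower there, and they also fell with library totals and with GC correction. miR-20a-5p went from 3836 and 4011 CPM in control cells to 281 and 347 in knockout cells (log2 fold change -3.31, SE 0.12, edgeR adjusted p = 5.37e-15; -2.76 with GC correction). miR-17-5p went from 1981 and 2001 CPM to 786 and 899 (-0.90, SE 0.11, edgeR adjusted p = 5.24e-07), and miR-92a-3p from 3934 and 4260.1 CPM to 1292 and 1674 (-1.14, SE 0.11, edgeR adjusted p = 2.66e-08). These 3 are listed arms of miR-17-92, and miR-92a-3p can also come from miR-106a-363. miR-32-5p fell from 214 ± 4.3 to 14.6 ± 1.3 CPM (SD, n = 2) and miR-92b-3p from 834 ± 23.5 to 285 ± 32.6 CPM. In knockout EVs the same 5 did not pass as lower: miR-20a-5p stood at 2080 and 2135 CPM against 3209 and 2897 in control EVs (-0.16, edgeR adjusted p = 0.280), and miR-92a-3p passed as higher (0.31, edgeR adjusted p = 0.0298), a call that held with DESeq2 and without knockdown EV replicate 1 and was lost in every other alternative run. In CPM all 5 lay below both control EV libraries. The TMM factors were 0.810 and 0.826 in knockout EVs and 1.05 and 1.08 in control EVs. The paralogs that did not pass there were not examined under other scalings. The interaction of line and fraction was 3.05 for miR-20a-5p (SE 0.16, edgeR adjusted p = 5.25e-22) and 1.34 for miR-92a-3p (SE 0.16, edgeR adjusted p = 4.43e-10).

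In knockdown cells the cluster fell, and of the 8 paralogs that share its seeds 1 fell, miR-92b-3p, from 834 ± 23.5 to 406 ± 40.3 CPM (SD, n = 2), 3 rose and 4 did not pass. Of all miRNAs tested there 24.3% were called higher and 29.5% lower, so a count of 4 of 8 is near the share over all. miR-17-5p stood at 2206 and 2383 CPM against 1981 and 2001 in control (log2 fold change 0.22, edgeR adjusted p = 0.101), miR-20a-5p at 4239 and 4508 against 3836 and 4011 (0.17, edgeR adjusted p = 0.197) and miR-92a-3p at 3972 and 4389 against 3934 and 4260.1 (0.04, edgeR adjusted p = 0.785). The X-linked cluster was far higher in the knockdown line: miR-106a-5p rose 4.01-fold, from 14.8 ± 0.032 to 59.1 ± 8.3 CPM (SD, n = 2), miR-20b-5p from 2.97 ± 0.27 to 83.7 ± 6.4 CPM and miR-363-3p from 0.907 ± 0.39 to 165 ± 2.9 CPM. In knockdown EVs miR-17-5p (0.77, SE 0.12, edgeR adjusted p = 0.000166) and miR-20a-5p (0.81, SE 0.11, edgeR adjusted p = 6.92e-05) rose where 5 arms of the cluster fell. miR-106a-5p rose there too (1.26, SE 0.44, edgeR adjusted p = 0.0311), but not without either control EV replicate or knockdown EV replicate 1, which leaves 0.34.

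**Figure D4:**
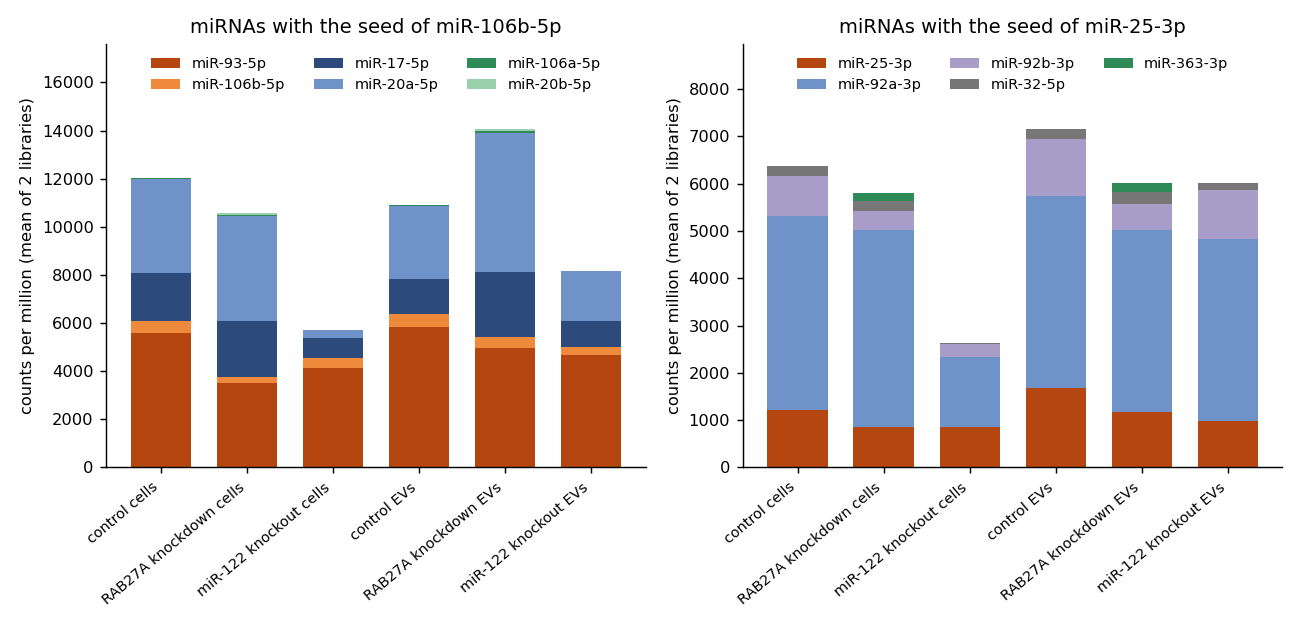
Stacked mean CPM of 2 libraries per group (bars from 0) for the miRNAs with the seed of miR-106b-5p, left, and with the seed of miR-25-3p, right, with arms of the cluster at the base in orange and brown. In knockout cells the bars are short because miR-20a-5p stood at 314 CPM and miR-92a-3p at 1483 CPM, against 3923 and 4097 in control cells, while the base of miR-93-5p stood at 4131 against 5583.

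Over whole paralogous clusters, 11 of the 12 listed arms of miR-17-92 were tested in each fraction. These include miR-19b-3p and miR-92a-3p, which can also come from miR-106a-363. In knockdown cells 1 rose and 2 fell (median log2 fold change 0.04), and in knockout cells 2 rose and 6 fell (median -0.39). In knockdown EVs 5 rose and 1 fell (median 0.77), and in knockout EVs 1 rose and 0 fell (median -0.07). Of all miRNAs tested, the shares called higher and lower were 24.3% and 29.5% in knockdown cells, 27.7% and 34.6% in knockout cells, 18.9% and 27.5% in knockdown EVs, and 18.9% and 22.3% in knockout EVs. The arms of miR-106a-363 that were tested, 4 of 10 in cells and 3 in EVs, all rose in the knockdown line. In the knockout line 3 of the 4 fell in cells and all 3 in EVs. Summed over its 10 listed arms, which leave out miR-19b-3p and miR-92a-3p, miR-106a-363 stood at 19.4 ± 0.31 CPM in control cells, 315 ± 10.1 in knockdown cells and 7.46 ± 0.95 in knockout cells (SD, n = 2).

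Across the 12 libraries the 3 seed-sharing arms did not have the same nearest patterns. By Pearson's r of log2 TMM-scaled CPM, among 287 miRNAs at or above the median level, those most like miR-93-5p were miR-34a-5p (0.96), miR-24-1-5p (0.92), miR-92a-1-5p (0.91) and its cluster mate miR-25-5p (0.90). Those most like miR-106b-5p were miR-452-5p (0.90), miR-30c-1-3p (0.87), miR-93-5p (0.84) and miR-542-3p (0.83). Those most like miR-25-3p were miR-486-5p (0.89), which is a member of the blood list, miR-29a-3p (0.87), miR-339-5p (0.82) and miR-138-1-3p (0.82). Between the members themselves r ran from 0.33, for miR-93-3p with miR-25-3p, to 0.90, for miR-93-5p with miR-25-5p. The points share libraries, depths and scaling factors, and the values describe these 12 libraries only.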

How the data were processed

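The authors deposited whole-number counts per mature miRNA, with no normalization. The submitters' processing notes name cutadapt, Bowtie and hg19. Tool versions, the miRNA annotation and the assignment of multiply matching reads are not stated in these sources. Libraries held small RNA inserts of 17 to 52 nt, per the labels' protocols. The 6 members and the lists were chosen with earlier results of these data known. CPM used each library's total. The main test was edgeR 4.0.16 (limma 3.58.1, R 4.3.3), quasi-likelihood, with TMM factors, filterByExpr and Benjamini-Hochberg adjustment at 0.05, fitted on the 6 libraries of a fraction (613 miRNAs in cells, 488 in EVs) or on all 12 (574), and tested on simulated data. The SE is the log2 fold change over the square root of F. Ratios within libraries used a pseudocount of 0.5 and exact two-sided permutation tests. DESeq2 1.42.0, other scalings, no filter, GC correction, thinning and leaving out libraries were alternatives. Intervals cover counting error only. Named miRNAs are the members, miRNAs sharing their seeds with at least 50 counts, the 2 paralogous clusters, the closest 4 patterns of each seed-sharing arm, and markers of other cells.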

Additional observations from a re-analysis of the deposited data

Results flagged for a closer look

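The difference between EVs and cells was not the same in the miR-122 knockout line as in the control line for 2 arms, by the interaction term of the edgeR fit over 12 libraries, in which 48.3% of 574 miRNAs were called, a larger share than 2 of 6. It was -0.50 on the log2 scale for hsa-miR-106b-3p and -0.51 for hsa-miR-106b-5p. In the knockout line miR-106b-5p was lower in EVs than in cells (-0.56), and in the control line it was at -0.05. miR-106b-3p was at -0.06 in the knockout line and 0.44 in the control line. Leaving out single libraries moved the values between -0.71 and -0.26 for miR-106b-5p, and between -0.58 and -0.29 for miR-106b-3p. The call of miR-106b-5p was lost for 10 of the 12 libraries left out and that of miR-106b-3p for 8. The fits without a filter on low counts and on only the libraries compared called 0 arms, and GC correction left miR-106b-3p at 0.0145.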

How the results depend on the processing

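Counts moved past 1.5 times their value under these alternatives. In knockout cells 1 arm passed in a fit on only the libraries compared. In knockout EVs library totals gave 5 arms, 42 miRNAs higher and 177 lower, against 92 and 109 with TMM, and DESeq2 gave 60 higher. For knockout against knockdown EVs library totals gave 2 arms, 71 higher and 130 lower, against 111 and 86. For EVs against cells in the knockdown line library totals gave 5 arms, 99 higher and 32 lower. Without a filter, 201 miRNAs were lower in control EVs than in cells, 231 were lower in knockout EVs, where 6 arms passed, and the knockout interaction had 0 arms. The knockdown interaction gave 1 arm, 60 miRNAs higher and 54 lower with library totals, 45 higher with DESeq2, 46 lower without a filter, 1 arm with GC correction and 2 arms on only the libraries compared. The knockout interaction gave 1 arm with library totals and 0 on only the libraries compared. Thinned EV libraries, with fewer miRNAs testable, gave 2 arms and 70 lower for knockdown EVs, 0 arms, 31 higher and 30 lower for knockout EVs, and 1 arm and 64 higher for knockout against knockdown EVs. With library totals the higher share of calls went from 44.5% to 32.4% in knockout cells and from 47.6% to 36.9% for knockout against knockdown cells. With a pseudocount of 0.1 the EV difference in the miR-25 arm ratio was 0.61 and passed. Leaving out the knockdown line, chosen after seeing the data, gave 0.96 for the miR-93 arm ratio.

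Signs changed for these log2 values, and the cause was not tested. In knockout cells miR-93-5p was 0.0058 with RLE factors and with DESeq2. miR-106b-5p was -0.25 with library totals, -0.032 without a filter and -0.046 on only the libraries compared. miR-106b-3p was -0.26 and miR-25-5p -0.0032 with GC correction. In knockout EVs miR-93-5p was -0.048 with RLE factors and with DESeq2, -0.32 with library totals (edgeR adjusted p = 0.0176), -0.058 with GC correction and -0.024 on only the libraries compared. With library totals miR-25-5p was -0.067 and miR-92a-3p -0.069 there, and miR-93-5p was -0.093 for knockout against knockdown EVs. For EVs against cells, control values were 0.092 for miR-106b-5p and 0.065 for miR-93-5p with library totals, and -0.050 for miR-25-3p without a filter. In the knockdown line miR-25-5p was 0.015 with library totals and miR-25-3p -0.029 without a filter. In the knockout line miR-106b-3p, miR-93-5p and miR-25-3p were 0.15, 0.18 and 0.19 with library totals, 0.59, 0.20 and 0.14 with GC correction, and 0.011, 0.045 and 0.066 on only the libraries compared. The knockout interaction of miR-106b-3p was 0.0145 with GC correction.

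Leaving out single libraries gave 3 to 6 arms in knockdown cells, with 94 to 175 miRNAs higher and 102 to 210 lower. It gave 1 to 4 arms in knockout cells, 3 to 6 for knockout against knockdown cells (125 to 208 miRNAs higher) and 1 to 4 in knockout EVs (35 to 83 higher). For EVs against cells it gave 1 to 4 arms in control (87 to 191 miRNAs lower) and 0 to 1 in knockdown (24 to 44 higher). The knockdown interaction had 11 to 34 miRNAs higher and the knockout interaction 0 to 2 arms. Values ran from -0.098 to 0.17 for miR-106b-5p in knockout cells and from -0.13 to 0.062 for miR-93-5p in knockout EVs. For EVs against cells they ran from -0.26 to 0.052 for miR-106b-5p in control. In the knockdown line they ran from -0.23 to 0.12 for miR-106b-3p, -0.082 to 0.17 for miR-106b-5p, -0.30 to 0.080 for miR-25-3p and -0.19 to 0.030 for miR-93-5p. In the knockout line they ran from -0.21 to 0.17 for miR-106b-3p, -0.099 to 0.22 for miR-25-3p and -0.068 to 0.12 for miR-93-5p. EV differences of arm ratios ran from -0.36 to -0.24 for miR-106b and 0.48 to 0.71 for miR-25, and the knockdown difference of miR-25-3p over miR-106b-5p from -0.052 to 0.072.

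Pairing by replicate number was not visible in the counts: deviations of same-numbered libraries over 641 miRNAs correlated at -0.0695 to 0.0662 in 15 pairs of groups. Such values cannot show whether same-numbered libraries shared a culture, because noise of single libraries would also give them. With the number as a replicate block, arms called stayed at 6 in knockdown cells, 3 in knockout cells, 5 in knockdown EVs and 2 in knockout EVs. The block lost the calls of miR-106a-5p in knockdown EVs (1.26) and miR-92a-3p in knockout EVs (0.31), and no other call of a named miRNA against control. Depth limits the knockdown EVs most, where 2 members rest on 23 or fewer counts.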
